A study of Mus musculus with 12 samples.

Results

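The genes described here are 10 inhibitors of signalling through ERK (extracellular signal-regulated kinase) or the related kinases p38 and JNK: 5 phosphatases of the dual-specificity family (Dusp1, Dusp4, Dusp5, Dusp6 and Dusp10), 3 Sprouty genes (Spry1, Spry2 and Spry4) and 2 Spred genes (Spred1 and Spred2). They were chosen by name, as every probe set whose platform gene symbol is one of these. That gave 26 of the 45101 probe sets on the array, and 10 of the 18194 genes with a probe set of their own. The study profiled RNA of mouse granulosa cells, the cells around the oocyte in the ovarian follicle, with 12 Affymetrix arrays in 4 groups of 3. Females of 24 to 26 days were given 5 IU of PMSG, a gonadotropin from mare serum that makes follicles grow. Cells of the 0 h groups were taken 48 h later, without hCG. The 4 h groups then received 5 IU of hCG, human chorionic gonadotropin, which acts on the receptor for luteinizing hormone (LH), and their cells were taken 4 h after it. At each time 1 group was wild type (WT) and 1 carried Ex6DEL, a germline deletion of exon 6 of Snf2l (Smarca1), the gene of an ISWI chromatin remodelling ATPase. The Ex6DEL line was made with a Gata-1 Cre on a CD-1 background and loxP mice on a 129Sv background, and was kept without Cre on 129SV. The WT mice were littermates, and all animals had received PMSG. Cells were squeezed from punctured follicles and each array carried a pool from 5 mice. The labels do not say if arrays of the same group used different pools, so p-values measure the spread between arrays, which may be technical.

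When a growth factor receptor is activated, RAS, RAF and MEK pass the signal to ERK, which enters the nucleus and turns on genes, among them genes for its own inhibitors. DUSP phosphatases remove the activating phosphates from ERK, p38 or JNK, Sprouty proteins block the path from the receptor to RAS and RAF, and Spred proteins bind neurofibromin and hold RAS inactive. In granulosa cells of the mouse, LH or hCG raises cyclic AMP and releases EGF-like growth factors, which activate the EGF receptor and ERK, and ERK is needed there for ovulation.

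A promoter was matched by symbol for 8 of the 10 genes in RefSeq sequence of build GRCm38.p6. Each window of 300 bases runs from 250 bases before the start of the gene to 50 after it. Both strands were searched for 5 motifs: the cyclic AMP response element (CRE, TGACGTCA), the CRE half-site TGACG, the AP-1 site TGANTCA, the ETS site CCGGAA and the CArG box bound by serum response factor. The full CRE contains the half-site on both strands, so these overlap. The 250 bases before the start are shown for the 3 genes with a CRE or half-site there and for the 2 genes with the largest differences after hCG, with matches to any of the 5 motifs in capitals.
Dusp1 (chr17:26508473-26508722, minus strand): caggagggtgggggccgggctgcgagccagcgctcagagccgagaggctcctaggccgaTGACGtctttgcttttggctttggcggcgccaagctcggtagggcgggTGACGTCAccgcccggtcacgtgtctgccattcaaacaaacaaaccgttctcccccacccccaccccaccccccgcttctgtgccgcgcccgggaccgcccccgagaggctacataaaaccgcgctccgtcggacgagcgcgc
Dusp5 (chr19:53528895-53529144, plus strand): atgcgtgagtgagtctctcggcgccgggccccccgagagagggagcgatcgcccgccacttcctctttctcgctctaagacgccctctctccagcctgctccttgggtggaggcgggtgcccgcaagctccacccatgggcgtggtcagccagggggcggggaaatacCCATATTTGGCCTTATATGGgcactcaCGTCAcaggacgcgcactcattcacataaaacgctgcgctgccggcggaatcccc
Spred2 (chr11:19924192-19924441, plus strand): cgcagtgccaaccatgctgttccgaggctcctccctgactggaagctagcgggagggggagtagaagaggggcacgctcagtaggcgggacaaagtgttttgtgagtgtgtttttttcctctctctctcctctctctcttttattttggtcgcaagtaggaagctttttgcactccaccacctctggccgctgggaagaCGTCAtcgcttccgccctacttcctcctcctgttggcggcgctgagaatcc
Dusp6 (chr10:99262981-99263230, plus strand): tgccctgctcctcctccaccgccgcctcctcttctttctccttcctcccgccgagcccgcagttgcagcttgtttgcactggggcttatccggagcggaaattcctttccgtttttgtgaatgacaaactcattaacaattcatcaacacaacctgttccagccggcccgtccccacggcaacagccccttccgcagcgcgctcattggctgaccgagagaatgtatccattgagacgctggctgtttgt
Spry2 (chr14:105896820-105897069, minus strand): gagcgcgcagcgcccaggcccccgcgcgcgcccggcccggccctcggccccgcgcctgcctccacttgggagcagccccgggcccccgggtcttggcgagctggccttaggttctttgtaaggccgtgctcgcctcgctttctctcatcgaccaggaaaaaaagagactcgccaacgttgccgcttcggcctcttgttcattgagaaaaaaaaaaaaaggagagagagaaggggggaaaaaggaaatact
The full CRE was found in the Dusp1 promoter alone of the 8 windows, 143 to 136 bases before the start, and 1.79% of all 32851 promoters of the table hold one. A half-site lay in the windows of Dusp1, Dusp5 and Spred2, against 20.8% of all promoters. The Dusp5 promoter holds 2 CArG boxes side by side, 82 to 73 and 72 to 63 bases before the start, and 1.63% of all promoters hold any. An ETS site was found in the Spry2 window, after the start and so outside the bases shown, against 14.9% of all promoters. No window of the 8 held the AP-1 site, which 7.81% of all promoters hold. These are matches of letters and not measured binding.

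Values are log2 intensities per probe set, normalized by the submitters, with a floor of 2.21 and a maximum of 18.2, and from 36.4% to 40.5% of an array's probe sets were less than 0.1 above that floor. Log2 changes come from 1 limma model of all 12 arrays and p-values are adjusted over all 18194 genes (Benjamini-Hochberg), with a gene called at an adjusted p under 0.05. Smarca1 read 10.31 to 12.32 on the WT arrays and 10.61 to 12.19 on the Ex6DEL arrays, and since the place of its probes relative to exon 6 is not known here, this does not check the labels. Of the granulosa markers, Inha (16.30 to 18.18), Hsd17b1 (11.45 to 15.24), Foxl2 (8.39 to 13.65) and Fshr (7.69 to 13.57) were well above the floor, while Amh was at 2.21 on every array. Oocyte markers were present too, with Gdf9 at 9.62 to 12.38 and Zp3 at 8.34 to 12.62, as were theca and stroma genes such as Cyp17a1 at 9.20 to 15.14. Other members of these lists were lower, such as the oocyte gene Bmp15 at 3.6 to 5.7. Of the theca and stroma genes, Tcf21 read 2.86 to 8.63 and Col1a1 read 3.78 to 7.93. Markers of other cells were mixed. The endothelial gene Kdr read 5.91 to 9.39 while Pecam1 did not exceed 2.21. The myeloid genes disagreed, with Csf1r at 7.89 to 9.73 and Lyz2 at 5.97 to 8.58, but Cd68 at 2.96 to 4.22 and Itgam at 2.7 or less. The T cell gene Cd3e did not exceed 2.37.

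3 of the 0 h arrays stood apart on marker lists. On Ex6DEL 0 h replicate 3, the 9 measured LH-induced ovulatory genes averaged 10.35, against 4.11 and 3.36 on the other Ex6DEL 0 h arrays and 11.89 to 13.69 on the 4 h arrays. Its 21 measured ERK target and immediate early genes averaged 9.36, against 6.23 and 6.33. On WT 0 h replicate 1 the same lists averaged 5.04 and 7.55, against 3.44 to 3.89 and 5.77 to 6.23 on the other WT 0 h arrays. On Ex6DEL 0 h replicate 1 the 8 theca and stroma genes averaged 11.94, against 7.28 to 9.07 on the other 11 arrays. The oocyte list of 7 genes was also highest there, at 10.13 against 7.39 to 9.11. The changes after hCG of the 7 genes with the largest increases of the mean are given with and without these arrays below.

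After hCG, Dusp4, Dusp5, Dusp6, Spry2, Spred1 and Spred2 had higher mean levels in both genotypes, by 1.21 to 3.37 on the log2 scale, and none of the 10 genes was called in either genotype. In WT, 0 of 10 were called, against 0.929% of all genes, and 6 of 10 had a positive change at an unadjusted limma p under 0.05, against 6.12% of all genes. In Ex6DEL, 0 of 10 were called, against 2.17% of all genes, and 6 of 10 had a positive change at that unadjusted threshold, against 4.74%. The 6 are the same genes in both genotypes. The median change of the 10 genes was 1.57 in WT and 1.82 in Ex6DEL, and over all genes it was 0 and -0.0062. The mean of the 9 measured granulosa markers was 11.27 to 12.18 on the WT 0 h arrays and 10.83 to 11.39 at 4 h, and 11.95 to 12.76 and 10.58 to 10.68 in Ex6DEL, where the times did not overlap. Its part in the changes of the 10 genes was not tested. The 2 responses come from separate arrays of each genotype but from 1 shared estimate of error.

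**Figure D1:**
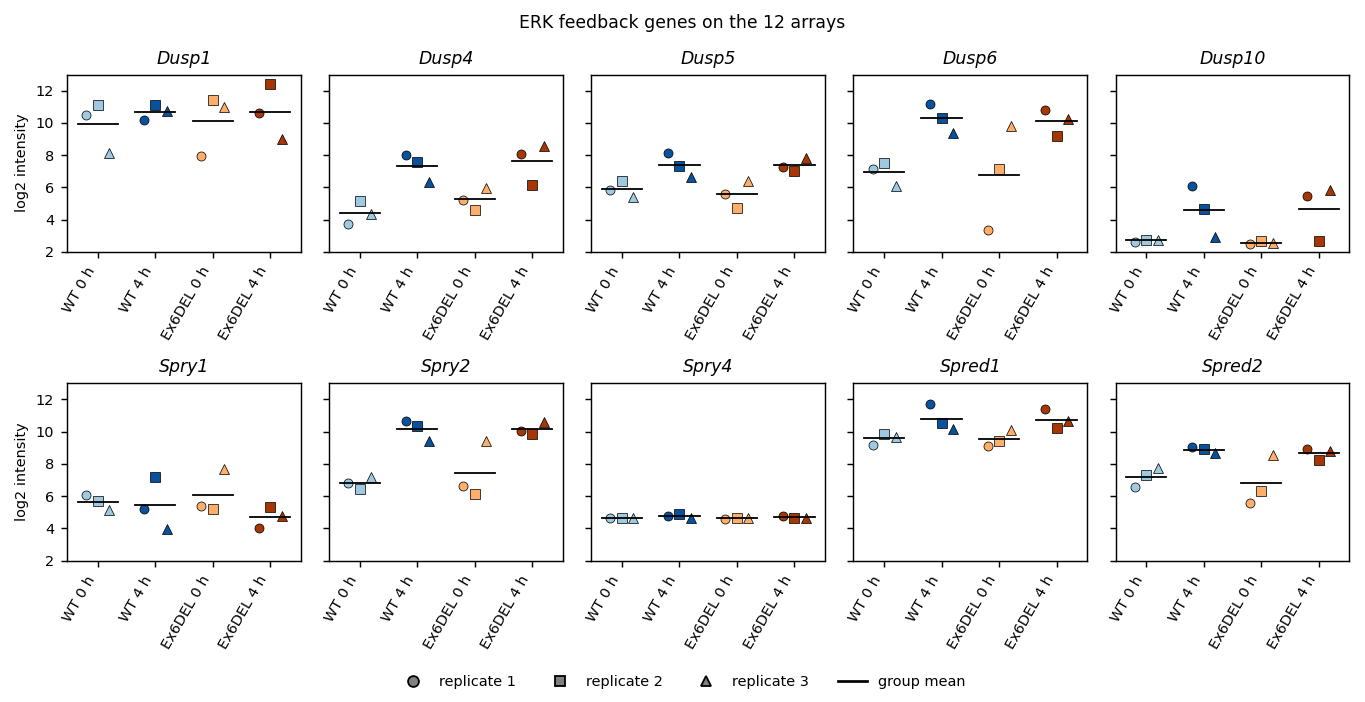
Log2 intensity of the 10 genes on each of the 12 arrays, by group, with symbols for the replicate number and a bar for the group mean (n = 3 arrays). Dusp6 lies at 3.35 to 9.80 on the Ex6DEL 0 h arrays and Spry2 lies at 9.42 to 10.64 on all 4 h arrays, while Spry4 stays between 4.58 and 4.92.

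Among the nuclear phosphatases, Dusp4, which acts on ERK and JNK, read 3.75, 5.17 and 4.34 on the WT 0 h arrays and 8.02, 7.55 and 6.33 at 4 h. In Ex6DEL it read 5.20, 4.58 and 5.99 at 0 h and 8.08, 6.17 and 8.57 at 4 h. All 4 h arrays lay above all 0 h arrays of their genotype, by a narrow margin in Ex6DEL. The group means were 4.42 ± 0.71 and 7.30 ± 0.87 in WT, and 5.26 ± 0.70 and 7.60 ± 1.27 in Ex6DEL (SD, n = 3). The log2 change was 2.88 in WT (SE 0.72, 7.35-fold, limma adjusted p = 0.109) and 2.35 in Ex6DEL (SE 0.72, 5.09-fold, limma adjusted p = 0.125).

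Dusp5, a nuclear phosphatase specific to ERK, read 5.84, 6.40 and 5.38 at 0 h and 8.12, 7.30 and 6.64 at 4 h in WT. In Ex6DEL the readings were 5.59, 4.70 and 6.40 at 0 h and 7.27, 7.04 and 7.83 at 4 h. The 0 h and 4 h arrays were fully separated in both genotypes, and the lowest 4 h array of WT exceeded the highest 0 h array by a small amount. Its change was 1.48 in WT (SE 0.51, 2.79-fold, limma adjusted p = 0.234) and 1.81 in Ex6DEL (SE 0.51, 3.52-fold, limma adjusted p = 0.104).

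Dusp6, the cytoplasmic phosphatase of ERK, had the largest difference of the 10 genes and the widest error. It read 7.15, 7.51 and 6.11 at 0 h and 11.18, 10.32 and 9.39 at 4 h in WT, without overlap. The Ex6DEL arrays read 3.35, 7.14 and 9.80 at 0 h and 10.79, 9.21 and 10.27 at 4 h. There the 0 h array with raised ovulatory genes (9.80) exceeded the lowest 4 h array, and the 0 h array with raised theca genes (3.35) was the lowest of all 12. The SD of the Ex6DEL 0 h group was 3.24, against 0.72 to 0.90 in the other groups. The model shares 1 error over the 4 groups, so this spread also widens the WT interval and the genotype interval at 4 h. The log2 change was 3.37 in WT (SE 1.39, 95% interval 0.21 to 6.54, limma adjusted p = 0.316) and 3.33 in Ex6DEL (SE 1.39, 95% interval 0.16 to 6.49, limma adjusted p = 0.242). In Ex6DEL it was 4.85 without 0 h replicate 3 (limma adjusted p = 0.0433) and 1.62 without 0 h replicate 1 (limma adjusted p = 0.476). The Ex6DEL value thus depended on single arrays.

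Dusp1, an immediate early phosphatase of p38, JNK and ERK, had the highest mean of the 5 phosphatases and its arrays overlapped in both genotypes. It read 10.52, 11.10 and 8.12 at 0 h and 10.15, 11.10 and 10.75 at 4 h in WT. In Ex6DEL it read 7.93, 11.39 and 10.99 at 0 h and 10.59, 12.43 and 9.01 at 4 h. High and low arrays were found at both times. The change was 0.75 in WT (SE 1.20, 95% interval -1.97 to 3.47, limma adjusted p = 0.899) and 0.57 in Ex6DEL (SE 1.20, 95% interval -2.15 to 3.30, limma adjusted p = 0.921). Its sign turned when single arrays were left out.

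Dusp10, a phosphatase of p38 and JNK, was near the floor at 0 h and uneven at 4 h. All 6 of its 0 h arrays lay between 2.46 and 2.76. At 4 h it read 6.11, 4.68 and 2.91 in WT and 5.44, 2.68 and 5.86 in Ex6DEL, so 1 array of each genotype stayed near the 0 h level. The change was 1.87 in WT (SE 0.93, limma adjusted p = 0.416) and 2.09 in Ex6DEL (SE 0.93, limma adjusted p = 0.27). The Ex6DEL arrays overlapped, and those of WT did not. Without WT 4 h replicate 1 the WT change was 1.09 (limma adjusted p = 0.741).

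Of the Sprouty genes, Spry2 had the smallest p of the 10 genes in both genotypes. It read 6.81, 6.44 and 7.18 at 0 h and 10.64, 10.34 and 9.42 at 4 h in WT. In Ex6DEL it read 6.65, 6.14 and 9.44 at 0 h and 10.05, 9.87 and 10.61 at 4 h. No 0 h array reached the 4 h arrays of its genotype, and the Ex6DEL 0 h array with raised ovulatory genes came closest. The change was 3.32 in WT (SE 0.77, 10.01-fold, 95% interval 1.57 to 5.08, limma adjusted p = 0.0889) and 2.77 in Ex6DEL (SE 0.77, 6.81-fold, 95% interval 1.01 to 4.52, limma adjusted p = 0.102). Without Ex6DEL 0 h replicate 3 the Ex6DEL change was 3.78 (limma adjusted p = 0.00632). The WT change was then called too (limma adjusted p = 0.0087) at the same size.

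Spry1 was the gene with negative mean changes. In WT it read 6.07, 5.67 and 5.16 at 0 h and 5.17, 7.18 and 3.98 at 4 h. In Ex6DEL it read 5.37, 5.17 and 7.65 at 0 h and 4.05, 5.30 and 4.76 at 4 h. The groups overlapped in both genotypes, and the highest reading of all was on the 0 h array with raised ovulatory genes. The change was -0.19 in WT (SE 0.89, limma adjusted p = 1) and -1.36 in Ex6DEL (SE 0.89, limma adjusted p = 0.493), and the latter was -0.57 without that array. The WT value turned sign when single arrays were left out. For Spry4 the array gave little to measure. On 7 of the 12 arrays it read 4.63, and the whole range was 4.58 to 4.92. Its changes of 0.14 and 0.06 (SE 0.065 each, limma adjusted p = 0.365 and 0.697) are differences on a probe set that barely moved.

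Both Spred genes were well above the floor at both times. Spred1 read 9.18, 9.87 and 9.69 at 0 h and 11.72, 10.55 and 10.15 at 4 h in WT, and 9.12, 9.39 and 10.08 at 0 h and 11.38, 10.21 and 10.64 at 4 h in Ex6DEL. The times did not overlap in either genotype, though the margin in Ex6DEL was small. The change was 1.23 in WT (SE 0.46, 2.34-fold, limma adjusted p = 0.273) and 1.21 in Ex6DEL (SE 0.46, 2.32-fold, limma adjusted p = 0.201). Without WT 4 h replicate 1 the WT change was 0.77 (limma adjusted p = 0.534).

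Spred2 read 6.56, 7.31 and 7.76 at 0 h and 9.04, 8.90 and 8.67 at 4 h in WT. The Ex6DEL arrays read 5.58, 6.31 and 8.56 at 0 h and 8.90, 8.22 and 8.80 at 4 h. WT was fully separated, with an SD of 0.19 at 4 h, and in Ex6DEL the third 0 h array exceeded the lowest 4 h array. The change was 1.66 in WT (SE 0.68, 3.16-fold, limma adjusted p = 0.31) and 1.83 in Ex6DEL (SE 0.68, 3.55-fold, limma adjusted p = 0.187). Without Ex6DEL 0 h replicate 3 the latter was 2.70 (limma adjusted p = 0.0137), and without Ex6DEL 0 h replicate 1 it was 1.21 (limma adjusted p = 0.44). In these bulk samples fewer cells of a type and less RNA per cell cannot be told apart, for this and every other level given here.

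**Figure D2:**
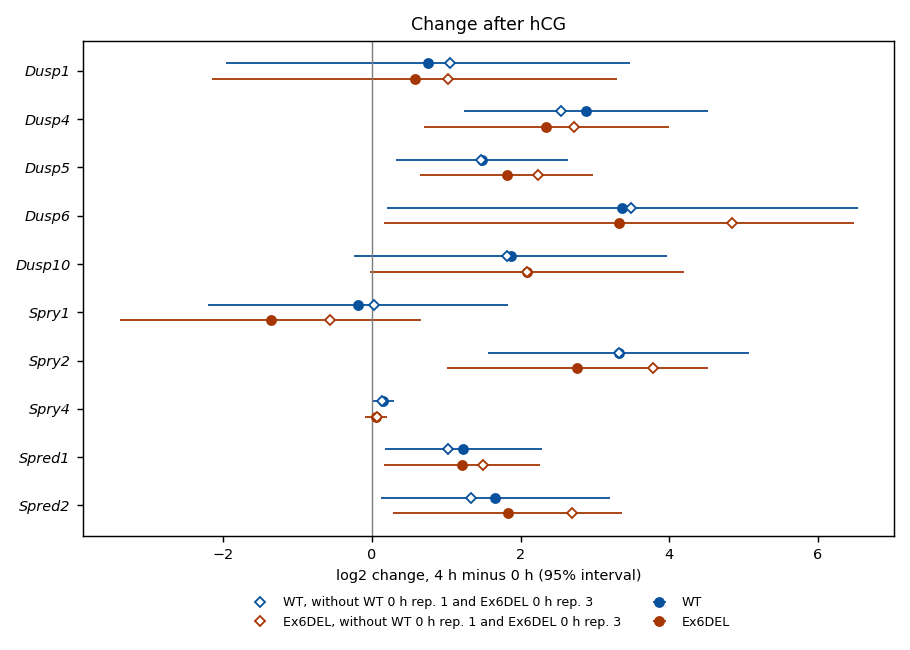
Log2 change from 0 h to 4 h after hCG for the 10 genes, with 95% intervals of the limma model (filled circles, n = 3 arrays a group), in WT and Ex6DEL. Open diamonds leave out the first WT array and the third Ex6DEL array of the 0 h groups, and there Dusp6 in Ex6DEL moves from 3.33 to 4.85 and Spry2 from 2.77 to 3.78.

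Counted by arrays, 7 of the 10 genes had all WT 4 h arrays above all WT 0 h arrays, against 7.52% of all genes. These were the 6 genes named first and Dusp10. In Ex6DEL the count was 4 of 10, against 5.13% of all genes, and the genes were Dusp4, Dusp5, Spry2 and Spred1. Leaving out Ex6DEL 0 h replicate 3 raised the Ex6DEL count to 6 of 10 by adding Dusp6 and Spred2, against 8.25% of all genes. Without Ex6DEL 0 h replicate 1 it stayed at 4, against 6.98%. Without WT 0 h replicate 1 the WT count stayed at 7, against 8.6%. Calls at the adjusted threshold moved too. Without Ex6DEL 0 h replicate 3, Dusp5, Dusp6, Spry2 and Spred2 were called in Ex6DEL, against 6.9% of all genes, and Spry2 in WT, against 1.49%. Without it and WT 0 h replicate 1 together, Spry2 and Spred2 were called in Ex6DEL, against 7.11% of all genes, and Spry2 in WT, against 1.76%. The share of all genes called in Ex6DEL was thus also higher than the 2.17% of all 12 arrays. No gene of the 10 was called when Ex6DEL 0 h replicate 1 or WT 0 h replicate 1 was left out alone. In Ex6DEL the log2 changes without 0 h replicate 3 were 2.71 for Dusp4, 2.23 for Dusp5, 4.85 for Dusp6, 2.09 for Dusp10, 3.78 for Spry2, 1.49 for Spred1 and 2.70 for Spred2. Without 0 h replicate 1 they were 2.32 for Dusp4, 1.83 for Dusp5, 1.62 for Dusp6, 2.03 for Dusp10, 2.39 for Spry2, 1.01 for Spred1 and 1.21 for Spred2. Of these 7, all but Dusp5 were smaller without replicate 1 than with all arrays. In WT, without 0 h replicate 1, they were 2.54 for Dusp4, 1.46 for Dusp5, 3.48 for Dusp6, 1.81 for Dusp10, 3.32 for Spry2, 1.03 for Spred1 and 1.34 for Spred2. The part of the ovulatory genes on Ex6DEL 0 h replicate 3, and of the theca genes on replicate 1, in these results was not tested.

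Set side by side over the arrays, the 10 genes gave a mean of 6.11 to 6.68 on the WT 0 h arrays and 7.29 to 8.49 on the WT 4 h arrays. In Ex6DEL the 0 h arrays gave 5.58, 6.21 and 7.61 and the 4 h arrays 7.58 to 8.13. The third Ex6DEL 0 h array thus lay inside the range of the 4 h arrays. Most alike over the 12 arrays were Dusp6 and Spred2 (Pearson r = 0.913, and 0.8 with group means taken off), Spry2 and Spred2 (0.904 and 0.846), Dusp5 and Spry2 (0.896 and 0.705), Dusp4 and Dusp5 (0.894 and 0.784), and Dusp4 and Spry2 (0.894 and 0.553). The best match of Dusp1 was Dusp6 (0.501 and 0.488), and that of Spry1 was Spry4 (0.238 and 0.552). With group means taken off, the best match of Spry1 was Spry2 at 0.664. These correlations describe arrays that share groups and normalization. By the same measure, of 9089 other genes above the median level, Dnaja4, a co-chaperone gene, was most like the mean profile of the 10 genes (r = 0.975), followed by 1700025G04Rik (0.971), Txnrd1, a thioredoxin reductase gene (0.965), D16Ertd472e (0.965) and Slc27a3 (0.963). Dnaja4 read 13.58, 13.10 and 11.34 on the WT 4 h arrays. In Ex6DEL it read 6.13, 8.87 and 11.31 at 0 h, in the same order as Dusp6.

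**Figure D3:**
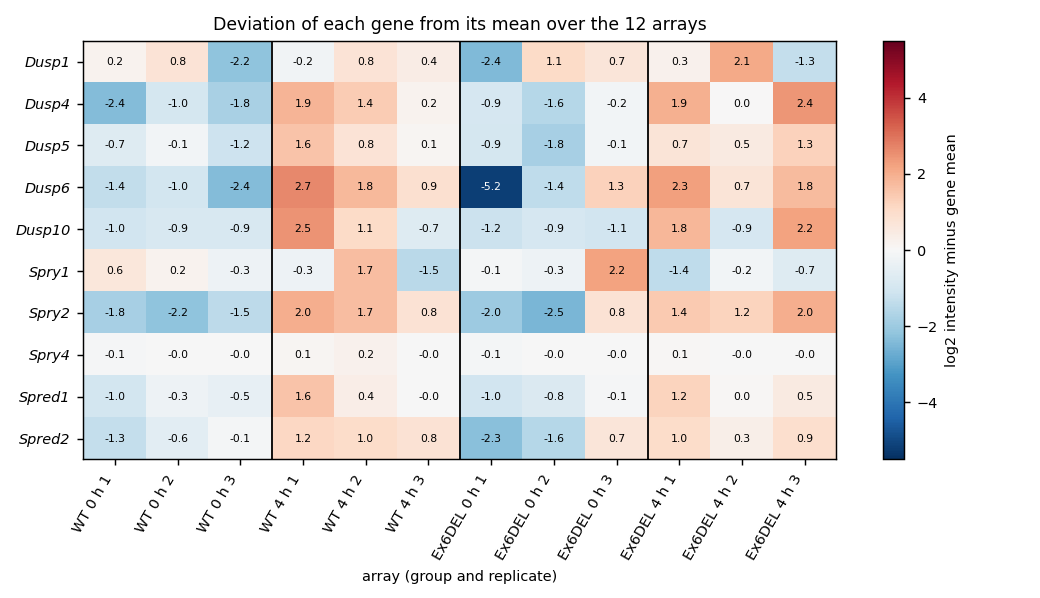
Log2 intensity of each gene minus its own mean over the 12 arrays, with red above and blue below, arrays in columns by group and replicate. On Ex6DEL 0 h replicate 3 Dusp1, Dusp6, Spry1, Spry2 and Spred2 are above their means, and on Ex6DEL 0 h replicate 1 Dusp6 is lower than on any other array.

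The other probe sets of these genes were mostly dim. Dusp1, Dusp4, Dusp5, Dusp6 and Spry1 have 1 probe set each, Dusp10 and Spry2 have 2, Spry4 has 4, Spred2 has 5 and Spred1 has 8. Of the 26, 9 had a mean under 3, 6 varied by less than 0.5 over all 12 arrays, and 10 had a mean of at least 5. The second Spred1 probe set, at a mean of 6.23, gave 1.79 in WT and 1.88 in Ex6DEL (SE 0.54). For Spred2 the second probe set (mean 5.01) gave 0.61 in WT and 0.52 in Ex6DEL (SE 0.18). The second Spry2 probe set (mean 4.26) gave 0.26 and 0.61 (SE 0.37), far under the 3.32 and 2.77 of the first. The second Dusp10 probe set (mean 2.62) gave 0.53 and 0.87 (SE 0.42). With every probe set tested by itself over all 45101, none of the 26 was called by limma. The target of each probe set within its transcript is not known here.

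**Figure D4:**
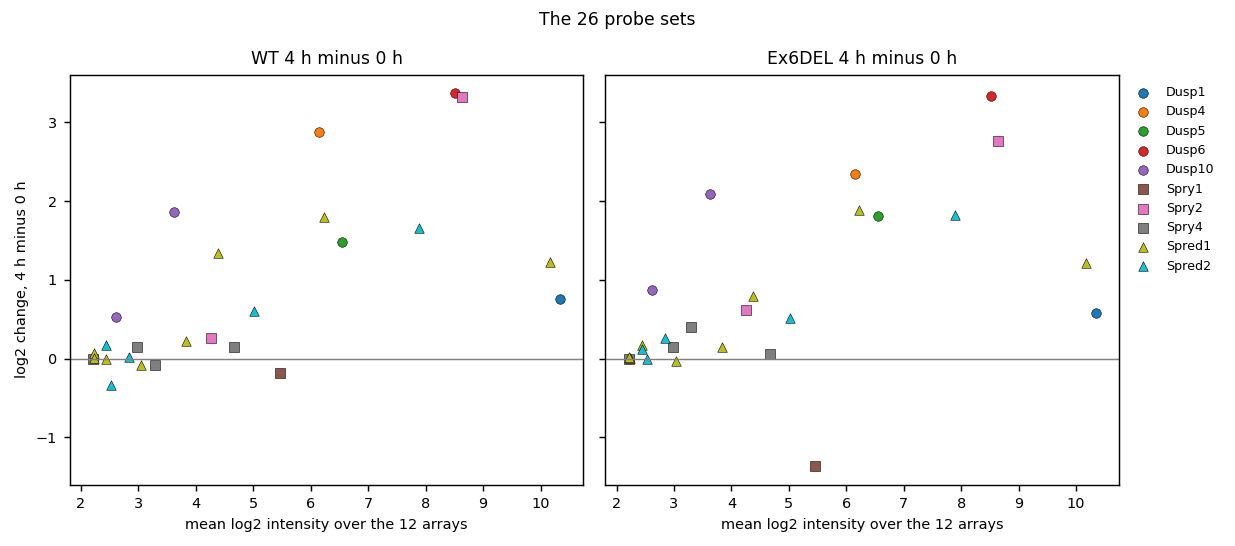
Log2 change from 0 h to 4 h (vertical axis) against the mean log2 intensity over the 12 arrays (horizontal axis) for the 26 probe sets of the 10 genes, in WT (left) and Ex6DEL (right). Probe sets with a mean under 3 lie between -0.33 and 0.26, apart from the second Dusp10 probe set at 0.53 and 0.87.

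Between the genotypes, no gene of the 10 was called at either time, and the intervals were wide. At 0 h 0 of 10 were called, against 0.033% of all genes, and 0 had an unadjusted limma p under 0.05, against 5.35%. At 4 h 0 of 10 were called, against 0% of all genes, and 0 passed the unadjusted threshold, against 1.61%. The 0 h differences, Ex6DEL minus WT, ran from -0.40 for Spred2 (95% interval -1.93 to 1.14) to 0.83 for Dusp4 (95% interval -0.81 to 2.48), with limma adjusted p from 0.883 to 1. At 4 h they ran from -0.74 for Spry1 (95% interval -2.77 to 1.28) to 0.31 for Dusp4 (95% interval -1.34 to 1.95), all with a limma adjusted p of 1. Spry2 differed by 0.60 at 0 h (limma adjusted p = 0.995) and by 0.04 at 4 h, and Dusp6 gave -0.16 and -0.20. Dusp6 could have differed by about 3 on the log2 scale either way within its interval (-3.32 to 3.01 at 0 h), so these data do not show that the genotypes are alike. These values are for the brightest probe set of each gene. The second Spred2 probe set (mean 5.01) had the opposite sign, with 0.42 at 0 h and 0.33 at 4 h (SE 0.18). The Spred2 probe set with a mean of 2.84 gave 0.020 and 0.26 (SE 0.091). The 0.42 and the 0.26 passed the unadjusted threshold, and neither was called. The dimmest Spred2 probe sets gave -0.28 and 0.032 at 0 h, and 0.045 and -0.027 at 4 h.

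The hCG response itself was compared between genotypes by the interaction term. None of the 10 was called, against 0.011% of all genes, and 0 had an unadjusted limma p under 0.05, against 3.2%. The differences between the responses ran from -1.17 for Spry1 (SE 1.26, 95% interval -4.04 to 1.69, limma adjusted p = 0.871) to 0.33 for Dusp5 (SE 0.72, 95% interval -1.31 to 1.98, limma adjusted p = 0.949). For Spry2 the value was -0.56 (SE 1.09), and it was 0.46 when WT 0 h replicate 1 and Ex6DEL 0 h replicate 3 were both left out. The lower Ex6DEL count of separated arrays is therefore not a tested difference between genotypes.

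**Figure D5:**
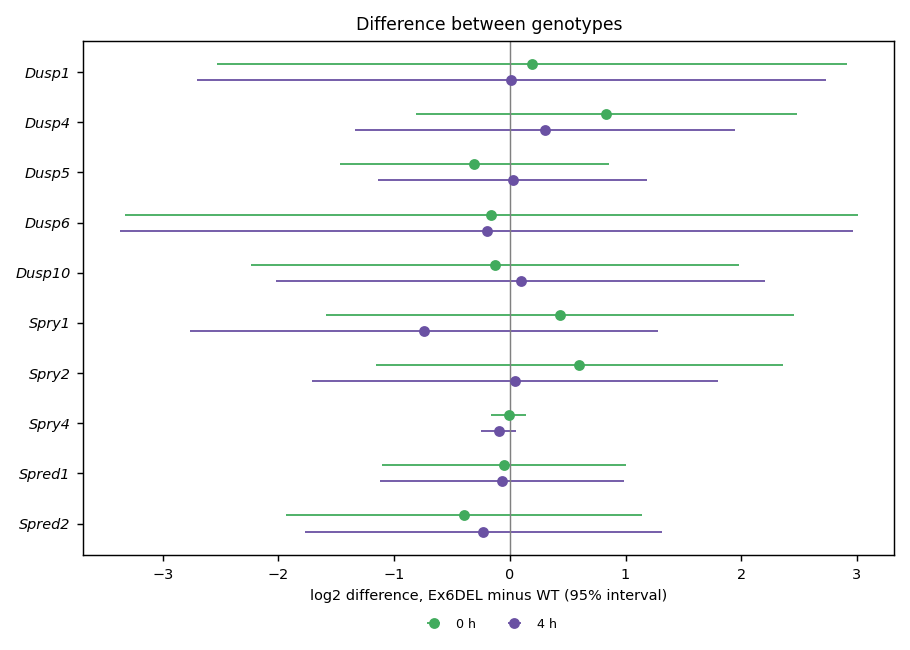
Log2 difference between genotypes, Ex6DEL minus WT, for the 10 genes at 0 h and 4 h, with 95% intervals of the limma model (n = 3 arrays a group). Every interval includes 0, and those of Dusp6 reach about 3 on either side.

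The rest of the pathway was described by 5 lists. Upstream, of 15 measured ligands and receptors out of 17 listed, 1 was called higher after hCG in WT and 0 in Ex6DEL. It was Btc, the gene of the EGF-like ligand betacellulin, higher by 11.27 in WT (SE 1.97, limma adjusted p = 0.0429) and by 8.85 in Ex6DEL (SE 1.97, limma adjusted p = 0.0576). Ereg, the gene of epiregulin, had changes of 8.27 and 6.42 (SE 2.80, limma adjusted p = 0.226 and 0.261). Both also stand in the list of LH-induced genes. At an unadjusted limma p under 0.05, 3 of the 15 were higher in WT and 2 in Ex6DEL, against 6.12% and 4.74% of all genes. They were Btc and Ereg, and in WT also Erbb4, whose change was only 0.10 (SE 0.021). The list median was -0.0022 in WT and -0.0040 in Ex6DEL.

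In the cascade from RAS to ERK, 15 of 22 listed genes were measured and 0 were called in either genotype, with list medians of -0.07 in WT and -0.10 in Ex6DEL. At an unadjusted limma p under 0.05, 1 of the 15 was higher and 3 lower in each genotype. Of all genes, 6.12% were higher and 8.28% lower in WT, and 4.74% higher and 14.2% lower in Ex6DEL. Grb2, the adaptor that brings SOS to receptors, had changes of 1.32 and 1.41 (SE 0.37, limma adjusted p = 0.152 and 0.0883). Ksr1, a scaffold of RAF and MEK, had changes of -1.74 and -2.67 (SE 0.71, limma adjusted p = 0.313 and 0.0903). Gab1, a docking protein for receptor signals, had -0.87 and -1.31 (SE 0.31, limma adjusted p = 0.246 and 0.0646).

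Among 20 measured of 21 other feedback regulators and MAPK phosphatases, 1 was called higher in WT and 0 in Ex6DEL. Errfi1, an inhibitor of the EGF receptor, rose by 5.18 in WT (SE 0.86, limma adjusted p = 0.0397), and its change in Ex6DEL was 3.98 (SE 0.86, limma adjusted p = 0.0547). At an unadjusted limma p under 0.05, 3 of the 20 were higher in WT and 2 in Ex6DEL, against 6.12% and 4.74% of all genes. Spry3 had changes of 1.33 and 1.88 (SE 0.56, limma adjusted p = 0.325 and 0.116). The list median was 0.28 in WT and 0.03 in Ex6DEL, against 1.57 and 1.82 for the 10 genes.

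Of 21 measured ERK target and immediate early genes out of 22, 0 were called in either genotype, and at an unadjusted limma p under 0.05 5 of the 21 were higher in WT (6.12% of all genes), and 5 were higher (4.74%) and 1 lower (14.2%) in Ex6DEL. The list median was 1.87 in WT and 0.85 in Ex6DEL. On Ex6DEL 0 h replicate 3 this list averaged 9.36, above the 8.21 to 8.81 of the Ex6DEL 4 h arrays. Its part in the lower Ex6DEL median was not tested. Ier5 had changes of 4.65 and 4.03 (SE 0.92, limma adjusted p = 0.0579 and 0.062) and Phlda1 had 1.97 and 1.76 (SE 0.40, limma adjusted p = 0.0638 and 0.0611). Of the JNK and p38 cascade, on which Dusp1 and Dusp10 act, 13 of 14 genes were measured. Map2k3, a kinase that activates p38, rose by 1.07 in WT (SE 0.19, limma adjusted p = 0.0441) and 1.11 in Ex6DEL (SE 0.19, limma adjusted p = 0.0329), and no other gene of the list was called. At an unadjusted limma p under 0.05, 2 of the 13 were higher and 3 lower in WT, and 1 higher and 3 lower in Ex6DEL. Of all genes, 6.12% were higher and 8.28% lower in WT, and 4.74% and 14.2% in Ex6DEL. The list median was -0.089 in WT and -0.091 in Ex6DEL. Mapk9 had changes of -1.26 and -1.56 (SE 0.36, limma adjusted p = 0.16 and 0.0646). Map2k6, another kinase of p38, had changes of -2.20 and -2.33 (SE 0.68, limma adjusted p = 0.187 and 0.111).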

How the data were processed

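Granulosa cell RNA was measured on 12 Affymetrix arrays. What was deposited is a log2 intensity for each probe set and array. GCRMA is named in the submitters' processing notes, and its version and settings are not given in the sources used here. Groups follow the sample labels. A reference table paired 34958 probe sets with 1 gene symbol. The 932 with several symbols and the 9211 not listed were left out of the gene tests. Where a gene had several probe sets, the brightest on average stood for it. One model of the 4 groups was fitted to the deposited log2 values with limma 3.58.1 (R 4.3.3; lmFit, then eBayes with neither trend nor robust fitting; two-sided, 8 residual and 0.626 prior degrees of freedom), and p-values were adjusted over all 18194 genes. The number of arrays, 3 a group, limits the precision. The calculation was tested on simulated data. All 10 genes and each of their probe sets were described. Of the pathway lists, up to 4 genes with the smallest p in each genotype could be named. The genes, lists and alternatives were chosen with earlier results of these data known. Replicate numbers were not used as pairs in the main model, since the labels tie them to no shared batch. Still, 11 of 18 same-numbered pairs correlated over 0.1 (median of the 18 0.21, against -0.087 for other pairs). A fit with the replicate number as a block is given below. No genome was used beyond RefSeq promoters.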

Additional observations from a re-analysis of the deposited data

How the results depend on the processing

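No gene of the 10 was called in any of the 5 comparisons as designed, and 50 log2 values were each recomputed under 21 or 22 alternatives (Dusp10 and Spry4 under 1 fewer). With genes above the median level only, 2 were called in WT (Dusp4, Spry2) and 3 in Ex6DEL (Dusp4, Dusp5, Spry2), against 5.77% and 14.7% of the 9097 genes tested. Array weights called 2 in WT (Dusp4, Spry2), against 12.6% of all genes. With both 0 h arrays out, 1 was called in WT and 2 in Ex6DEL, against 1.76% and 7.11% of all genes. Leaving out single arrays gave 0 to 1 in WT and 0 to 4 in Ex6DEL. The share of all genes then ran from 0.275% to 1.89% in WT and from 0.143% to 6.9% in Ex6DEL. The setting that called 4 of the 10 in Ex6DEL was the one at 6.9%, and that with 1 in WT was at 1.49%. Every other alternative, and every alternative for the genotype and interaction comparisons, called 0 of the 10. Of the 20 changes after hCG, 3 turned sign under at least 1 alternative, and of the 30 genotype and interaction values 27 did. With quantile normalization, the values that turned sign were Dusp1 -0.24 (0 h), Spry4 0.034 (0 h), Spred1 0.079 (4 h), Dusp1 0.39 (interaction), Dusp6 0.15 (interaction), Spred1 0.44 (interaction). With array medians made equal, the values that turned sign were Spry4 0.0055 (0 h), Dusp1 -0.030 (4 h), Dusp5 -0.020 (4 h). With probe sets of a gene averaged, the values that turned sign were Spred1 0.017 (0 h), Spry4 0.077 (4 h), Spred2 0.076 (4 h), Spry4 0.10 (interaction). With array weights, the values that turned sign were Dusp1 -0.0016 (WT after hCG), Spry1 0.032 (WT after hCG), Dusp1 -0.35 (Ex6DEL after hCG), Dusp6 0.36 (0 h), Dusp1 -0.25 (4 h), Spred1 0.037 (4 h), Dusp4 0.30 (interaction), Spred1 0.24 (interaction). With WT 0 h replicate 1 and Ex6DEL 0 h replicate 3 both out, the values that turned sign were Spry1 0.031 (WT after hCG), Spry1 -0.14 (0 h), Spry2 -0.41 (0 h), Dusp4 0.17 (interaction), Dusp6 1.36 (interaction), Spry2 0.46 (interaction), Spred1 0.46 (interaction). Leaving out single arrays turned the sign of values with these ranges. For WT after hCG these were Dusp1 -0.15 to 1.35, Spry1 -1.06 to 0.54. For Ex6DEL after hCG these were Dusp1 -0.51 to 1.41. For 0 h these were Dusp1 -0.71 to 1.28, Dusp5 -0.72 to 0.12, Dusp6 -1.68 to 1.55, Spry1 -0.36 to 0.88, Spry2 -0.41 to 1.24, Spry4 -0.019 to 0.0074, Spred1 -0.32 to 0.16, Spred2 -1.27 to 0.22. For 4 h these were Dusp1 -0.86 to 0.85, Dusp4 -0.18 to 1.02, Dusp5 -0.33 to 0.41, Dusp6 -0.66 to 0.24, Dusp10 -0.73 to 1.08, Spry1 -1.47 to 0.12, Spry2 -0.31 to 0.30, Spred1 -0.39 to 0.39. For interaction these were Dusp1 -1.27 to 0.72, Dusp4 -1.01 to 0.19, Dusp5 -0.097 to 0.75, Dusp6 -1.75 to 1.48, Dusp10 -0.60 to 1.21, Spry2 -1.19 to 0.46, Spred1 -0.34 to 0.44, Spred2 -0.45 to 1.04. The cause was not tested. Averaging all probe sets lowered the changes of Spry2 to 1.79 and 1.69, of Spred1 to 0.57 and 0.53 and of Spred2 to 0.43 and 0.54 in WT and Ex6DEL, and that of Dusp10 to 1.20 in WT. Quantile normalization moved the median over the 9097 brighter genes by 0.19 in Ex6DEL, -0.23 between genotypes at 0 h and 0.31 in the interaction. Over all genes, 169 were called in WT (111 higher, 58 lower) and 394 in Ex6DEL (103 higher, 291 lower). Quantile normalization gave 144 higher and 147 lower in WT and 179 higher and 307 lower in Ex6DEL, and array weights called 2289 in WT. Fitting only the groups compared called 17 in WT and 10 in Ex6DEL, and the level filter called 525 and 1334. Without Ex6DEL 0 h replicate 3 the Ex6DEL count was 1256, and without Ex6DEL 4 h replicate 3 it was 26. With the replicate number as a block, 0 of the 10 genes were called in each comparison and 85 genes in WT and 92 in Ex6DEL. Deviations of same-numbered arrays correlated from -0.37 to 0.73 (median 0.21, against -0.087 for other pairs). All 6 pairs of replicate 2 were over 0.1 (0.24 to 0.55), but 7 of the 18 pairs were not, and the labels name no shared batch. Low signal limits Dusp10, Spry4 and the dim probe sets, and 3 arrays a group limit the rest.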
